A study of Mus musculus with 32 samples.

Results

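Genes of nucleotide, one-carbon and polyamine synthesis were described in 32 arrays of mouse brain tumour neurospheres. The set was a list of 35 genes, and a gene counted as measured where a probe set of the array carried its symbol alone. That held for 32 of the 35 genes, out of 19938 genes measured in all. Impdh2 and Amd1 had no such probe set in the annotation used, and the probe sets of Sms, spermine synthase, were shared with another gene model. The 32 genes comprised 4 of 4 listed for pyrimidine synthesis, 10 of 11 for purine synthesis, 7 of 7 for deoxynucleotides, 9 of 9 for serine and one-carbon metabolism, and 2 of 4 for polyamines. Their values, given here as log2 expression values, lay well inside the range of the array, with means over all arrays between 8.09 for Dhodh and 12.39 for Paics.

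All groups shared the strain B6;129-Trp53tm1Brd, and every culture was p53-deficient and carried an added oncogene. Postnatal neurosphere cells (LVW in the labels) overexpressing the oncogenes had been transplanted into the brain. Tumour cells that expressed the transgene were sorted by flow cytometry and cultured again as neurospheres. In the consecutive design, HRAS was added to MYC tumour cells (MYC then HRAS, 2 arrays) or MYC to HRAS glioma cells (HRAS then MYC, 2 arrays), and the secondary tumours were profiled. The other groups had received HRAS+MYC together (7 arrays, tumours like atypical teratoid/rhabdoid tumour), HRAS+Bmi1 (2 arrays, glioma), HRAS (5 arrays, glioma), MYC+Ezh2 (5 arrays), MYC+Bmi1 (3 arrays) or MYC (6 arrays), the last 3 named primitive neuroectodermal tumours. MYC regulates transcription in growing cells, HRAS is a small GTPase that signals to MAP kinases, and Ezh2 and Bmi1 are Polycomb subunits. The labels do not say whether replicates came from separate tumours, so the p-values here reflect only array-to-array spread, which may be technical.

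Dividing cells build purine and pyrimidine rings from amino acids, carbon dioxide and one-carbon units carried by folate, and reduce the ribonucleotides to the precursors of DNA. Serine, made from a glycolytic intermediate or taken up, is the main donor of those one-carbon units, which cytosolic and mitochondrial enzymes pass between oxidation states. Polyamines are small cations made from ornithine and decarboxylated S-adenosylmethionine, and they bind RNA and DNA. MYC with its partner MAX binds the sequence CACGTG, called the E-box, and Odc1 and Cad are textbook targets of MYC.

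Promoter windows of RefSeq genes, from 250 bases before to 50 bases after the annotated start (build GRCm38.p6), were available for 28 of the 32 genes. The letters CACGTG, which read alike on both strands, occurred in the windows of Paics, Atic, Nme1 and Tyms. That is 4 of 28 genes, or 14.3%, against 9.52% of the 15563 measured genes with a window. Counted from the annotated first base as 0, the motif began at position -203 in Paics, -7 in Atic, -18 in the Nme1 window shown and -61 in Tyms. Windows of Ppat and Paics are shown because these neighbours in purine synthesis start 276 bases apart on opposite strands of chromosome 5 and differed in their expression. Atic and Nme1 are shown because they hold the motif and changed between groups. Tyms, which also holds it, is not shown and passed in no comparison. The windows of Cad and Odc1 did not hold the motif. Whether the motif goes with a change in expression was not tested. The windows are Paics chr5:76951052-76951351 on the plus strand, Ppat chr5:76951529-76951828 on the minus strand, Atic chr1:71556906-71557205 on the plus strand and Nme1 chr11:93968223-93968522 on the minus strand. They read 5′ to 3′ along the gene, with the motif in capitals.
Paics: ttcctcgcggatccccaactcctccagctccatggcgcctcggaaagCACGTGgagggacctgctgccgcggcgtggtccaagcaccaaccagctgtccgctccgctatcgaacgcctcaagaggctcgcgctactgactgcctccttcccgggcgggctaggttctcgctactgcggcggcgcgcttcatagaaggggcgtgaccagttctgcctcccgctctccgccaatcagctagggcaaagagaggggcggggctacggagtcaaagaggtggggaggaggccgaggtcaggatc
Ppat: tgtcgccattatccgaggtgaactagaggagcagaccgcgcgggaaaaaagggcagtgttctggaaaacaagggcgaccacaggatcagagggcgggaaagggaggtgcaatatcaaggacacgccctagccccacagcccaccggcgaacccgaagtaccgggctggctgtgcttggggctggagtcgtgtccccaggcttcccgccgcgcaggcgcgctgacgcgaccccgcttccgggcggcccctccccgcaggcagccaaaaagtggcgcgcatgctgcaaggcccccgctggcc
Atic: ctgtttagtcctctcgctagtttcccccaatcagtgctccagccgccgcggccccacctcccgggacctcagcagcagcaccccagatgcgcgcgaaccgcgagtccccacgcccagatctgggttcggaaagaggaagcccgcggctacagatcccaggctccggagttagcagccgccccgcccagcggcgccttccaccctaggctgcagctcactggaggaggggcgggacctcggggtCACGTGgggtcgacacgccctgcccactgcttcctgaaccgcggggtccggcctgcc
Nme1: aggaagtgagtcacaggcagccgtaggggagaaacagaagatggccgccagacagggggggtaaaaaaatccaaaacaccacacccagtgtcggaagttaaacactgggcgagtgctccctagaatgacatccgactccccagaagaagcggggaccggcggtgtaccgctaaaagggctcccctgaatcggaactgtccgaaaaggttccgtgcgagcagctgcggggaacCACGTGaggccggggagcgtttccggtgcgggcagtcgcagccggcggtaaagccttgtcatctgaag

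Some arrays and marker genes stood apart before any comparison. MYC replicate 6 was the lowest of the 6 MYC arrays in 28 of the 32 genes, and HRAS replicate 4 was the lowest of the 5 HRAS arrays in 20. The probe set of mouse Myc read 10.44 to 12.85 in the HRAS arrays and 10.38 and 10.87 in the HRAS+Bmi1 arrays, and at most 8.25 in every other array. Whether it reads the added MYC is not given in the sources used here, so it does not check the MYC labels. The proliferation marker Mki67 ranged from 8.85 to 10.12 in HRAS+MYC, from 8.82 to 9.93 in HRAS and from 9.42 to 10.74 in MYC arrays. Averaged per array, the 5 neuronal markers ranged from 5.11 to 5.38 in HRAS+MYC, from 4.72 to 6.87 in HRAS and from 7.37 to 9.72 in MYC arrays. The 5 markers of neural stem cells and glia ranged from 6.80 to 7.48 in HRAS+MYC, from 7.19 to 8.90 in HRAS and from 6.51 to 10.36 in MYC arrays. Of other cell types the tumour could hold, pericyte and fibroblast markers (5 genes) averaged at most 5.68, endothelial markers (5 genes) at most 5.58 and microglial markers (6 genes) at most 5.06 in any array, and T cell markers (3 genes) at most 5.09. Single markers reached 7.71 in the pericyte and fibroblast list (HRAS then MYC) and 7.50 in the endothelial list (HRAS). The highest single microglial value was 6.09 (HRAS+MYC) and the highest T cell value 5.865 (HRAS then MYC). In bulk samples, fewer cells of a type and less RNA per cell cannot be told apart, and the part of these markers in the results below was not tested.

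Most synthesis genes were expressed at lower levels in HRAS glioma cells than in HRAS+MYC or MYC cells. Of the 32 genes, 28 differed between the 8 groups (F test of limma, adjusted p under 0.05), where 49.7% of all genes did. Gmps, Tyms, Rrm1 and Psph were the genes that did not pass. In HRAS+MYC against HRAS cells, 23 of 32 genes rose and none fell, with a median difference of 0.78, while 11.7% of all genes rose and 13.0% fell and the median of all genes was 0.05. In HRAS against MYC cells, 23 of 32 fell and none rose, with a median of -0.95, while 18.0% of all genes fell and 15.4% rose and the median of all genes was -0.03. In HRAS+MYC against MYC cells only 2 of 32 rose and 4 fell, with a median of -0.01, in a comparison where 15.8% of all genes rose and 18.4% fell. These comparisons share arrays pairwise, so the first 2 share the low HRAS values. In the last comparison 1 gene rose and 9 fell without MYC replicate 6, and 1 rose and 10 fell with HRAS replicate 4 left out as well, a choice made after seeing the data. The split into higher and lower was 4 and 3 with arrays centred on their medians and 1 and 6 after renewed quantile normalization.

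**Figure D1:**
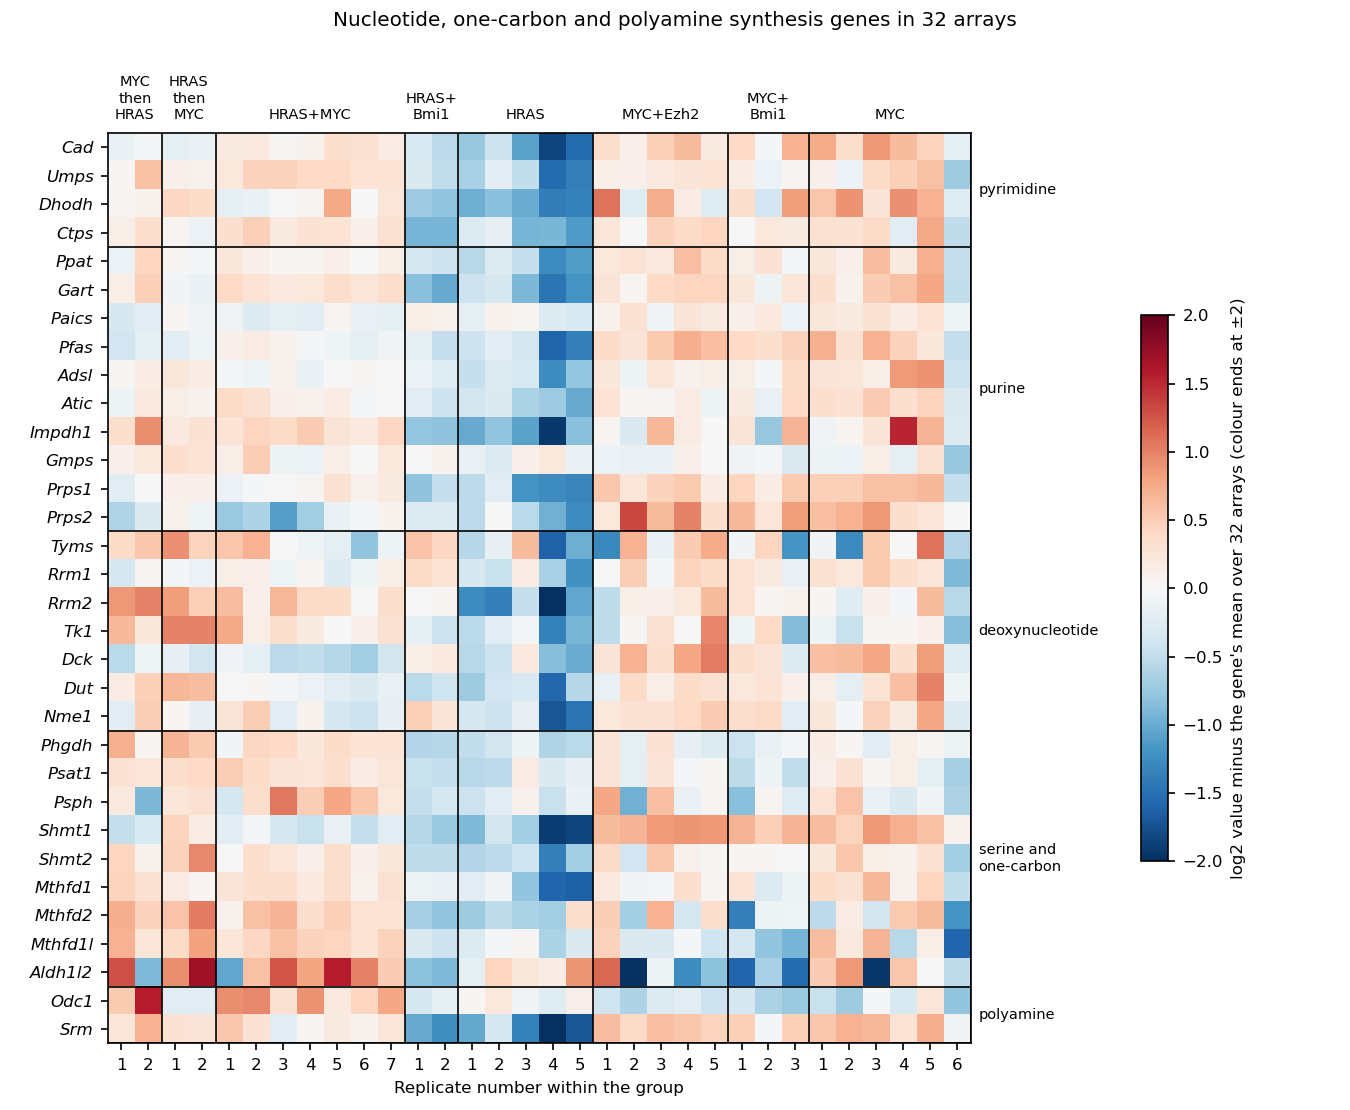
Each row is a gene and each column an array, grouped by the oncogenes added; colour gives the log2 value minus the gene's mean over 32 arrays. The HRAS and HRAS+Bmi1 columns are mostly blue, deepest in HRAS replicate 4, and the HRAS+MYC columns differ most from each other in Aldh1l2, Tyms, Psph and Prps2.

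The whole pyrimidine branch differed in both comparisons with HRAS cells. All 4 of its genes rose in HRAS+MYC over HRAS cells, with a median of 1.21, and all 4 fell in HRAS against MYC cells, with a median of -1.29. Cad, the enzyme of the opening steps of pyrimidine synthesis, measured 10.06 to 10.34 (median 10.20) in the 7 HRAS+MYC arrays, 9.27, 9.60, 8.95, 8.18 and 8.48 in the HRAS arrays, and 9.84 to 10.88 (median 10.56) in the 6 MYC arrays. Every HRAS array was below every HRAS+MYC and MYC array. Cad rose by 1.31 ± 0.19 (SE) in HRAS+MYC over HRAS cells (adjusted p 6.5e-06) and fell by 1.60 ± 0.19 in HRAS against MYC cells (adjusted p 1.8e-07), which is 3.03-fold.

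Dhodh, the mitochondrial enzyme that oxidises dihydroorotate, measured 7.89 to 8.85 (median 8.10) in HRAS+MYC arrays, 7.12, 7.26, 7.11, 6.71 and 6.74 in HRAS arrays, and 7.85 to 9.01 (median 8.72) in MYC arrays. The HRAS arrays again lay apart from both other groups. It rose by 1.21 ± 0.23 in HRAS+MYC over HRAS cells (adjusted p 0.00026) and fell by 1.62 ± 0.24 in HRAS against MYC cells (adjusted p 4.3e-06). Umps, which completes UMP, measured 10.48 to 10.74 (median 10.67) in HRAS+MYC arrays, 9.63, 10.04, 9.78, 8.74 and 8.90 in HRAS arrays, and 9.57 to 10.87 (median 10.51) in MYC arrays. For Umps the HRAS arrays were separate from HRAS+MYC but overlapped MYC, through MYC replicate 6. Ctps, which converts UTP to CTP, measured 9.90 to 10.28 (median 10.09) in HRAS+MYC arrays, 9.53, 9.65, 8.87, 8.89 and 8.68 in HRAS arrays, and 9.30 to 10.56 (median 10.10) in MYC arrays. The Ctps ranges met in the same way, through MYC replicates 4 and 6. The rises of Umps and Ctps in HRAS+MYC over HRAS cells were 1.21 ± 0.19 and 0.96 ± 0.17. No pyrimidine gene passed in HRAS+MYC against MYC cells with all arrays, where the differences ran from -0.41 to 0.23. Cad and Dhodh did pass there in some of the alternative runs listed below.

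**Figure D2:**
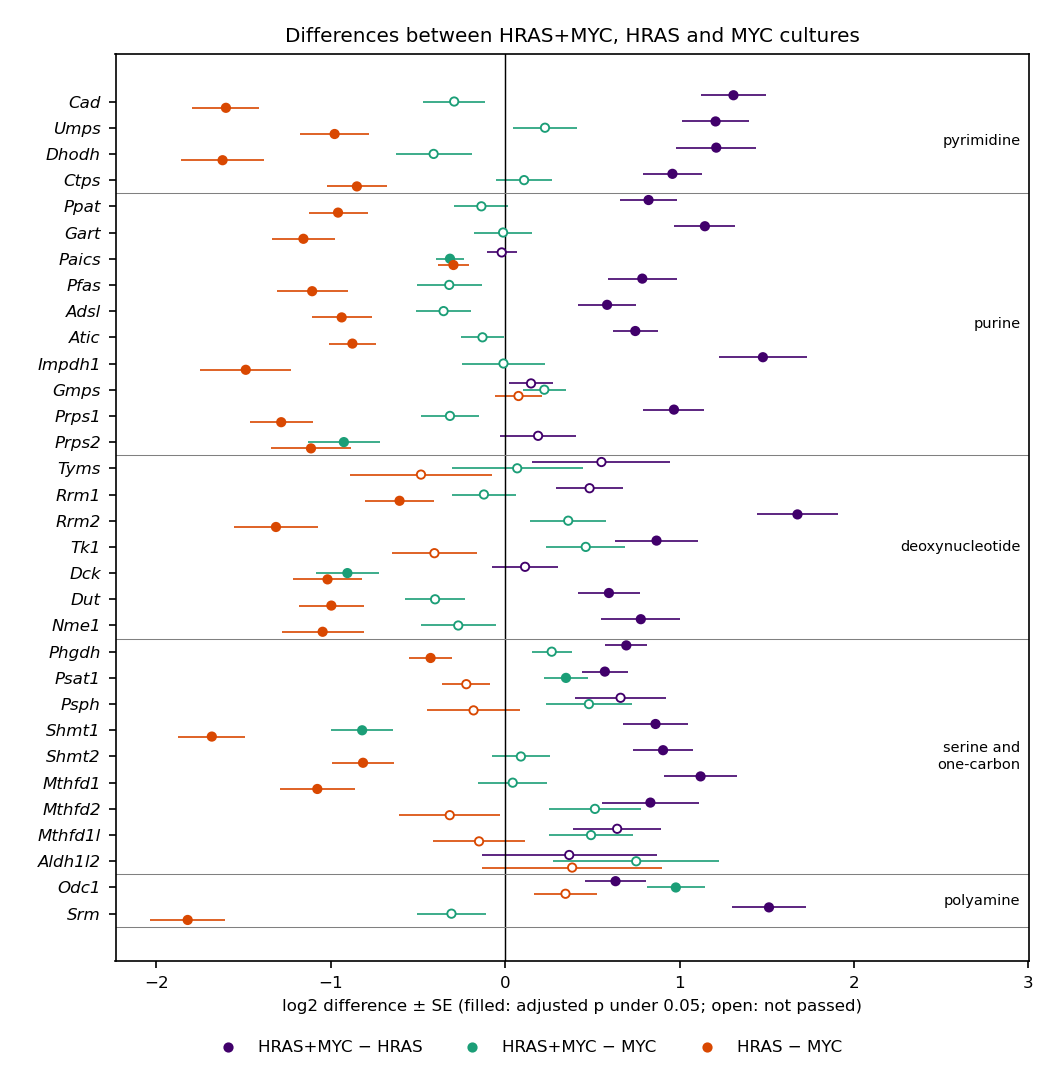
Log2 differences with standard errors for the 32 genes in HRAS+MYC minus HRAS, HRAS+MYC minus MYC and HRAS minus MYC cells, filled where adjusted p was under 0.05. Most genes lie right of 0 in the first comparison, near 0 in the second and left of 0 in the third. Odc1, Aldh1l2 and Gmps (between 0.08 and 0.22) lie right of 0 in all 3.

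In the purine branch, 7 of 10 genes rose in HRAS+MYC over HRAS cells and 9 of 10 fell in HRAS against MYC cells, with medians of 0.77 and -1.03. Impdh1, which makes the first guanine-specific intermediate, measured 8.48 to 8.79 (median 8.67) in HRAS+MYC arrays, 7.28, 7.50, 7.22, 6.35 and 7.45 in HRAS arrays, and 8.01 to 9.81 (median 8.44) in MYC arrays. The HRAS arrays did not overlap either group, and replicate 4 was lowest by a wide gap. Impdh1 rose by 1.48 ± 0.25 in HRAS+MYC over HRAS cells (adjusted p 7.3e-05) and fell by 1.49 ± 0.26 in HRAS against MYC cells (adjusted p 4.9e-05). Gart, a trifunctional enzyme of ring assembly, measured 11.09 to 11.30 (median 11.18) in HRAS+MYC arrays, 10.49, 10.58, 10.001, 9.45 and 9.70 in HRAS arrays, and 10.42 to 11.68 (median 11.32) in MYC arrays. Its HRAS+MYC arrays were all above its HRAS arrays, a rise of 1.15 ± 0.18 (adjusted p 1.8e-05).

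Ppat and Paics, the neighbours on chromosome 5 whose windows are printed above, differed. Ppat, the committed step of purine synthesis, measured 10.63 to 10.85 (median 10.71) in HRAS+MYC arrays, 10.06, 10.36, 10.16, 9.36 and 9.5 in HRAS arrays, and 10.16 to 11.33 (median 10.82) in MYC arrays. It rose by 0.82 ± 0.16 in HRAS+MYC over HRAS cells (adjusted p 0.00042) and fell by 0.96 ± 0.17 in HRAS against MYC cells. Paics, a bifunctional enzyme further down, measured 12.14 to 12.45 (median 12.20) in HRAS+MYC arrays, 12.20, 12.47, 12.44, 12.13 and 12.08 in HRAS arrays, and 12.31 to 12.69 (median 12.60) in MYC arrays. Its HRAS+MYC and HRAS arrays covered the same range, with a difference of -0.02 ± 0.09 (adjusted p 0.90). Paics fell by 0.30 ± 0.09 in HRAS and by 0.32 ± 0.08 in HRAS+MYC cells against MYC cells, and the second of these calls was lost with centred arrays (adjusted p 0.06). The first was lost with only the 2 groups in the fit (adjusted p 0.067), as was the fall of Rrm1 given below (adjusted p 0.15).

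Pfas, Adsl and Atic, of the middle and last steps to IMP, rose by 0.79 ± 0.20, 0.58 ± 0.17 and 0.75 ± 0.13 in HRAS+MYC over HRAS cells. The rise of Adsl was lost without HRAS replicate 4 (adjusted p 0.058). Gmps, which makes GMP, did not pass in any of the 11 comparisons, with differences of 0.15 ± 0.13 in HRAS+MYC minus HRAS and 0.08 ± 0.13 in HRAS minus MYC cells.

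Prps1 and Prps2, X-linked isozymes that make the ribose donor PRPP, changed unequally. Prps1 measured 11.10 to 11.51 (median 11.26) in HRAS+MYC arrays, 10.68, 11.01, 10.02, 9.95 and 9.89 in HRAS arrays, and 10.76 to 11.86 (median 11.74) in MYC arrays. Prps2 measured 8.30 to 9.47 (median 8.78) in HRAS+MYC arrays, 8.88, 9.39, 8.86, 8.44 and 8.14 in HRAS arrays, and 9.40 to 10.26 (median 9.87) in MYC arrays. Prps1 was thus higher in every HRAS+MYC than in any HRAS array, while Prps2 overlapped in these groups and fell by 0.93 ± 0.21 in HRAS+MYC against MYC cells (adjusted p 0.00086). Within arrays, Prps1 minus Prps2 was 2.35 ± 0.35 (SD, n = 7) in HRAS+MYC and 1.57 ± 0.25 (SD, n = 5) in HRAS cells, a shift of 0.78 (2-sided exact permutation test, adjusted p 0.0114 over 9 tests). Against the 1.74 ± 0.33 (SD, n = 6) of MYC cells the shift was 0.61 (exact permutation test, adjusted p 0.0236), and 0.0511 without MYC replicate 2 or without MYC replicate 6. Xist, which marks an inactive X chromosome, ran from 3.79 to 9.42 in HRAS+MYC, 3.86 to 4.47 in HRAS and 3.79 to 11.05 in MYC arrays, and its part in these values was not tested.

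In the deoxynucleotide branch 4 of 7 genes rose in HRAS+MYC over HRAS cells, with a median of 0.59, and in HRAS against MYC cells 5 of 7 fell, with a median of -1.0. Rrm2, the small subunit of ribonucleotide reductase, measured 10.62 to 11.27 (median 10.98) in HRAS+MYC arrays, 9.35, 9.24, 10.15, 8.14 and 9.57 in HRAS arrays, and 10.05 to 11.25 (median 10.62) in MYC arrays. All HRAS+MYC arrays lay above all HRAS arrays. Its rise of 1.68 ± 0.23 (adjusted p 4.2e-06), or 3.20-fold, was the largest of the 32 genes in that comparison. The large subunit Rrm1 fell by 0.61 ± 0.20 in HRAS against MYC cells, a call lost when MYC replicate 3 (adjusted p 0.051) or HRAS replicate 5 (adjusted p 0.099) was omitted. Rrm1 had a difference of 0.48 ± 0.19 that did not pass (adjusted p 0.069) in HRAS+MYC minus HRAS cells.

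Dut, which clears dUTP, measured 8.81 to 9.12 (median 8.98) in HRAS+MYC arrays, 8.38, 8.71, 8.79, 7.53 and 8.53 in HRAS arrays, and 8.91 to 10.09 (median 9.30) in MYC arrays. The HRAS arrays were below both groups, by 0.59 ± 0.18 from HRAS+MYC and 1.00 ± 0.19 from MYC cells. Without HRAS replicate 4 the difference from HRAS+MYC cells did not pass (adjusted p 0.084). Tk1, the thymidine kinase of dividing cells, measured 8.97 to 9.72 (median 9.14) in HRAS+MYC arrays, 8.43, 8.75, 8.92, 7.62 and 8.05 in HRAS arrays, and 8.11 to 9.07 (median 8.93) in MYC arrays. It rose by 0.87 ± 0.24 in HRAS+MYC over HRAS cells, and its HRAS and MYC arrays overlapped.

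Dck, the salvage kinase of deoxycytidine, followed another order. It measured 8.78 to 9.41 (median 8.99) in HRAS+MYC arrays, 8.94, 9.05, 9.68, 8.63 and 8.49 in HRAS arrays, and 9.23 to 10.32 (median 10.11) in MYC arrays. Dck fell by 0.90 ± 0.18 in HRAS+MYC (adjusted p 0.00023) and by 1.02 ± 0.20 in HRAS cells (adjusted p 0.00016) against MYC cells, and both HRAS-carrying groups overlapped. Nme1, a nucleoside diphosphate kinase, rose by 0.78 ± 0.23 in HRAS+MYC over HRAS cells (adjusted p 0.012), a call lost without HRAS replicate 4 (adjusted p 0.07), without HRAS replicate 5 (adjusted p 0.058) or with only the 2 groups in the fit (adjusted p 0.055). Tyms, thymidylate synthase, had a median SD within groups of 0.658, second only to Aldh1l2 among the 32 genes, and passed in none of the 11 comparisons.

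**Figure D3:**
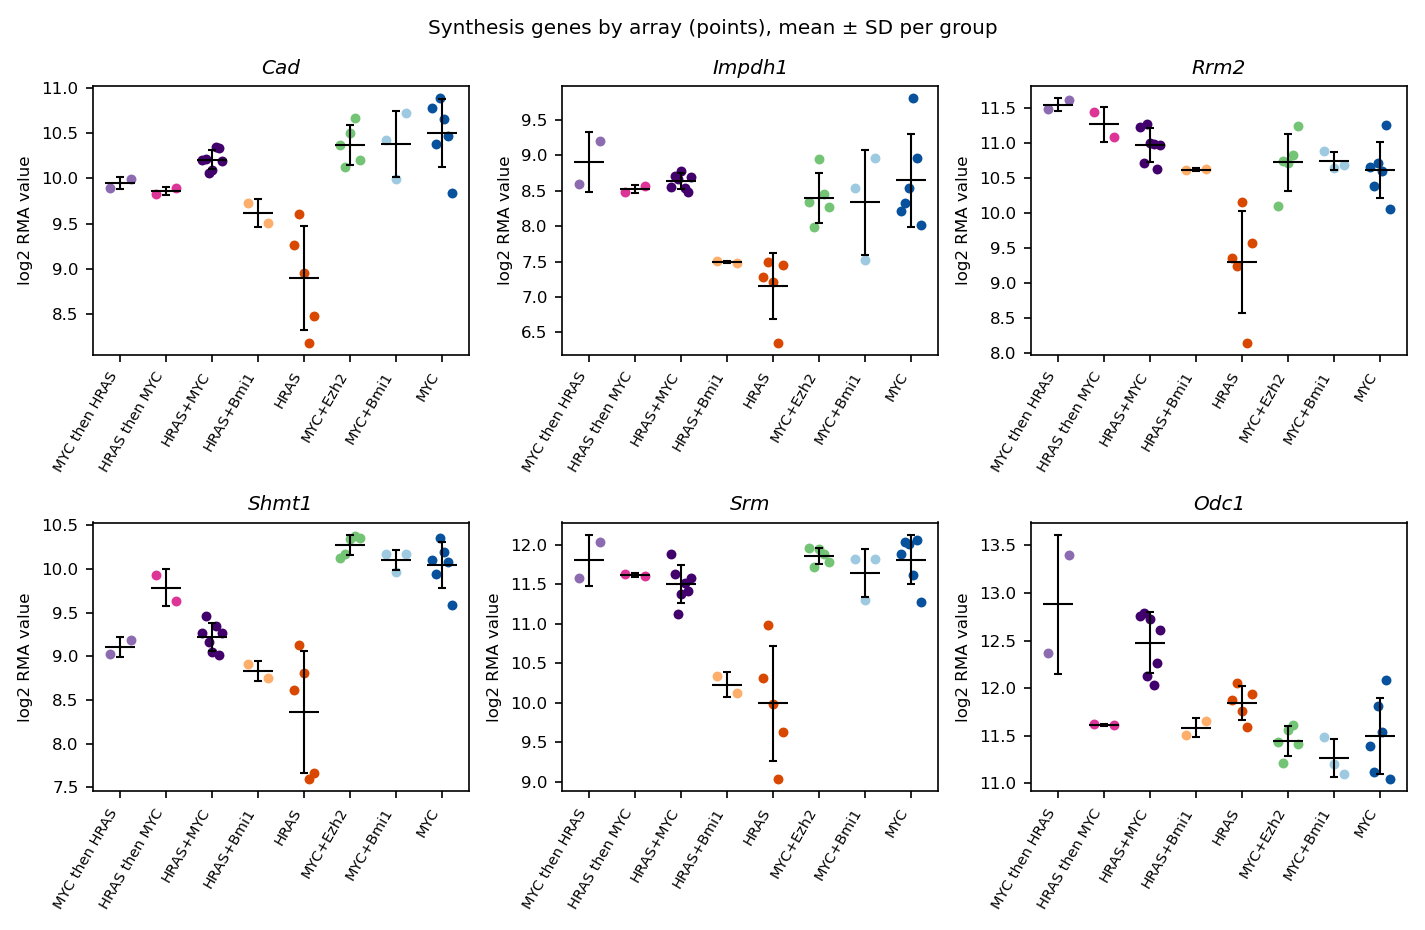
Log2 values of Cad, Impdh1, Rrm2, Shmt1, Srm and Odc1 in each array (points) with mean and SD per group (bars). The HRAS group has the lowest mean for the first 5 genes, and Odc1 is highest in MYC then HRAS and HRAS+MYC arrays; axes differ between panels and do not start at 0.

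Of the serine and one-carbon genes, 6 of 9 rose in HRAS+MYC over HRAS cells and 4 of 9 fell in HRAS against MYC cells, with medians of 0.69 and -0.32. Phgdh, which opens serine synthesis, measured 10.55 to 11.03 (median 10.88) in HRAS+MYC arrays, 10.12, 10.24, 10.52, 10.002 and 10.06 in HRAS arrays, and 10.40 to 10.76 (median 10.65) in MYC arrays. Its HRAS+MYC arrays were all above its HRAS arrays, a rise of 0.69 ± 0.12 (adjusted p 9.6e-05). Psat1, the next enzyme, rose by 0.57 ± 0.13 over HRAS and by 0.35 ± 0.13 over MYC cells. The second of these calls did not survive omission of HRAS+MYC replicate 1 or 2, or of MYC replicate 5 or 6 (adjusted p 0.054 to 0.13). Psph, the last step to serine, did not pass in any comparison.

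Shmt1 and Shmt2 move the one-carbon unit of serine to folate in the cytosol and in mitochondria. Shmt1 measured 9.02 to 9.47 (median 9.26) in HRAS+MYC arrays, 8.62, 9.13, 8.81, 7.59 and 7.66 in HRAS arrays, and 9.58 to 10.36 (median 10.10) in MYC arrays. Shmt2 measured 11.02 to 11.38 (median 11.25) in HRAS+MYC arrays, 10.43, 10.50, 10.63, 9.66 and 10.34 in HRAS arrays, and 10.35 to 11.57 (median 11.20) in MYC arrays. For Shmt1 the MYC arrays lay above all HRAS+MYC and HRAS arrays, whereas for Shmt2 the HRAS+MYC and MYC arrays overlapped. Shmt1 fell by 1.68 ± 0.19 in HRAS (adjusted p 8.7e-08) and by 0.82 ± 0.18 in HRAS+MYC cells (adjusted p 0.00054) against MYC cells. Shmt2 fell by 0.82 ± 0.18 in HRAS against MYC cells and differed by 0.09 ± 0.17 in HRAS+MYC against MYC cells. The within-array value of Shmt1 minus Shmt2 averaged -1.99 ± 0.13 (SD, n = 7) in HRAS+MYC, -1.95 ± 0.48 (SD, n = 5) in HRAS cells and -1.08 ± 0.33 (SD, n = 6) in MYC cells. By the exact permutation test it was lower by -0.91 in HRAS+MYC (adjusted p 0.0105) and by -0.87 in HRAS cells (adjusted p 0.0236) than in MYC cells.

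Mthfd1, the cytosolic trifunctional folate enzyme, measured 10.52 to 10.79 (median 10.75) in HRAS+MYC arrays, 10.23, 10.38, 9.65, 8.85 and 8.81 in HRAS arrays, and 9.95 to 11.09 (median 10.78) in MYC arrays. Its HRAS values spread widely and stayed below all HRAS+MYC values, a rise of 1.12 ± 0.21 (adjusted p 0.00021). Mthfd1l, which releases formate in mitochondria, had differences of 0.64 ± 0.25 in HRAS+MYC minus HRAS and -0.15 ± 0.26 in HRAS minus MYC cells, and neither passed. Mthfd1 minus Mthfd1l within arrays was -0.05 ± 0.61 in the 5 HRAS arrays and 0.88 ± 0.49 in the 6 MYC arrays (mean ± SD), a shift of -0.93 (exact permutation test, adjusted p 0.0402). In HRAS+MYC minus MYC cells the shift was -0.45 (exact permutation test, adjusted p 0.0402). The call in HRAS against MYC cells was lost when any of 7 of the 11 arrays was left out, with adjusted p values of 0.0714 or 0.0857, and that in HRAS+MYC against MYC cells when any of their arrays but HRAS+MYC replicate 1 or MYC replicate 1 or 3 was left out. Mthfd2, a mitochondrial dehydrogenase, rose by 0.83 ± 0.28 in HRAS+MYC over HRAS cells (adjusted p 0.029), a call lost without HRAS replicates 1, 2, 3 or 4 or HRAS+MYC replicate 3, each left out alone (adjusted p 0.052 to 0.072). Aldh1l2, the mitochondrial formyl-folate dehydrogenase, was the most variable gene, with a median SD within groups of 0.692, and none of its pairwise differences passed.

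Both measured polyamine genes rose in HRAS+MYC over HRAS cells, and 1 of them, Srm, fell in HRAS against MYC cells. Srm, spermidine synthase, measured 11.12 to 11.88 (median 11.52) in HRAS+MYC arrays, 10.31, 10.99, 9.99, 9.03 and 9.63 in HRAS arrays, and 11.27 to 12.06 (median 11.94) in MYC arrays. The HRAS arrays were below both other groups without overlap. Srm rose by 1.51 ± 0.21 in HRAS+MYC over HRAS cells (adjusted p 4.6e-06) and fell by 1.82 ± 0.22 in HRAS against MYC cells (adjusted p 1.6e-07), or 3.53-fold, the largest fall of the 32 genes there. Odc1, ornithine decarboxylase, measured 12.04 to 12.79 (median 12.61) in HRAS+MYC arrays, 11.87, 12.05, 11.76, 11.59 and 11.94 in HRAS arrays, and 11.04 to 12.08 (median 11.46) in MYC arrays. Odc1 had the highest median of these 3 groups in HRAS+MYC arrays, and the 3 groups overlapped, since the lowest HRAS+MYC array lay just below the highest HRAS and MYC arrays. It rose in HRAS+MYC cells by 0.63 ± 0.17 over HRAS (adjusted p 0.0082) and by 0.98 ± 0.17 over MYC cells (adjusted p 3.1e-05), while HRAS minus MYC was 0.35 ± 0.18 (adjusted p 0.15). That last difference passed as higher when MYC replicate 5 was left out, alone or together with replicate 4.

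When MYC was added to established HRAS glioma cells, 19 of 32 synthesis genes rose, 13 did not pass and none fell in HRAS then MYC against HRAS cells, with a median of 0.88, where 6.30% of all genes rose and 6.21% fell. By branch these were 3 of 4 pyrimidine, 6 of 10 purine, 3 of 7 deoxynucleotide, 6 of 9 serine and one-carbon, and 1 of 2 polyamine genes. Rrm2 measured 11.44 and 11.09 in the 2 HRAS then MYC arrays, against 8.14 to 10.15 in the HRAS arrays, and rose by 1.97 ± 0.33 (adjusted p 0.0002). Tk1 measured 9.96 in both HRAS then MYC arrays, against 7.62 to 8.92 in HRAS arrays, a rise of 1.61 ± 0.34 (adjusted p 0.002). Srm, Dhodh, Shmt2 and Shmt1 rose by 1.62 ± 0.30, 1.5 ± 0.33, 1.43 ± 0.25 and 1.42 ± 0.27. Odc1 measured 11.62 and 11.61 in HRAS then MYC arrays, inside the range of the HRAS arrays (difference -0.23 ± 0.25, adjusted p 0.67). The count was 8 without HRAS then MYC replicate 1, 6 without replicate 2 and 6 with only the 2 groups in the fit. The 3 genes that passed in every alternative were Rrm2, Shmt2 and Phgdh. The calls of Tk1, Srm, Dhodh and Shmt1 were each lost in some alternative. With all arrays, 8 of 17 ribosome biogenesis genes and 6 of 17 replication genes also rose and none fell. Their medians were 0.65 and 0.75. This comparison shares its HRAS arrays with those above. No group was a secondary tumour without a second oncogene. In the consecutive groups, the added oncogene and the further round of tumour growth therefore cannot be told apart.

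When HRAS was added to established MYC tumour cells, 2 of 32 genes rose and 4 fell against MYC cells, with a median of 0.02, where 9.83% of all genes rose and 10.6% fell. Odc1 measured 12.36 and 13.40 in the MYC then HRAS arrays, against 11.04 to 12.08 in MYC arrays, a rise of 1.39 ± 0.24 (adjusted p 0.00013). Rrm2 rose by 0.94 ± 0.32, with 11.48 and 11.61 in MYC then HRAS arrays above the highest MYC array. Shmt1 measured 9.02 and 9.19 in MYC then HRAS arrays, below all MYC arrays, and fell by 0.94 ± 0.26 (adjusted p 0.0099). Prps2, Dck and Paics fell by 0.90 ± 0.31, 0.80 ± 0.27 and 0.45 ± 0.12. None of these 6 calls, those of Odc1 and Shmt1 included, held in every alternative run. Only 1 gene passed without MYC then HRAS replicate 1, and only 1 without replicate 2. The split into higher and lower was 3 and 1 with centred arrays and 1 and 4 after renewed quantile normalization.

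**Figure D4:**
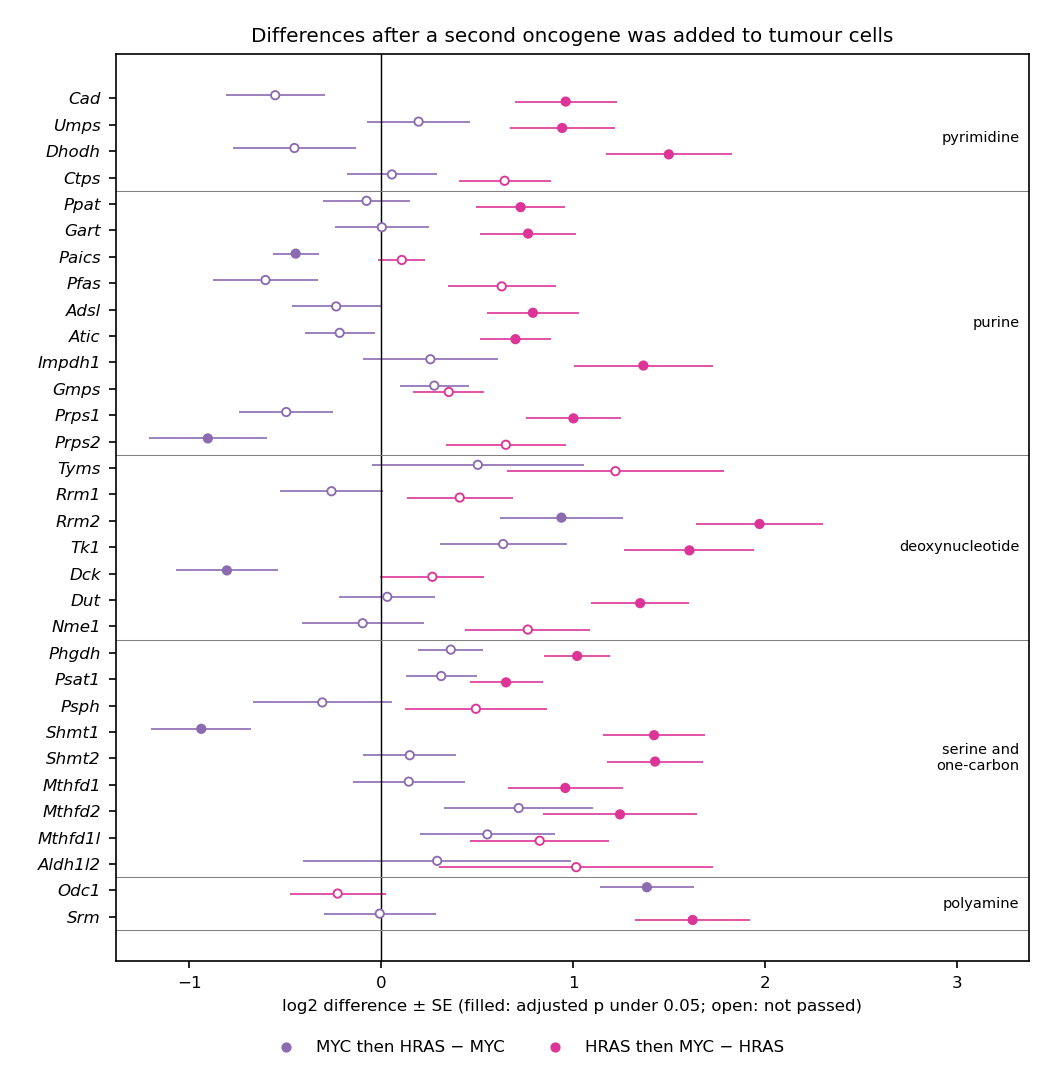
Log2 differences with standard errors for the 32 genes in MYC then HRAS minus MYC and HRAS then MYC minus HRAS cells, filled where adjusted p was under 0.05. In HRAS then MYC minus HRAS cells the differences were positive except for Odc1. In MYC then HRAS minus MYC cells they lay on both sides of 0, with Odc1 farthest right.

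The orders in which the oncogenes were given were compared next. Between MYC then HRAS and HRAS+MYC cells none of 32 passed, where 0.0702% of all genes rose and 0.0401% fell. In that comparison 1 of the 32 had an unadjusted p under 0.05, where 1470 of all 19938 genes did. Between HRAS then MYC and HRAS+MYC cells Dut rose by 0.75 ± 0.25 (adjusted p 0.042) and Odc1 fell by 0.86 ± 0.24 (adjusted p 0.017), where 6.89% of all genes rose and 5.17% fell. Dut measured 9.77 and 9.71 in HRAS then MYC arrays, above the highest HRAS+MYC array at 9.12. In place of these 2 genes, 1 passed when HRAS+MYC replicate 4, 5, 6 or 7 was left out, 6 (4 higher, 2 lower) with only the 2 groups in the fit and 5 (4 higher, 1 lower) with array weights. Odc1 was likewise the gene that passed between the 2 orders, higher by 1.27 ± 0.30 in MYC then HRAS than in HRAS then MYC cells (adjusted p 0.014), where 1.70% of all genes rose and 1.58% fell. MYC then HRAS replicate 2, at 13.40, carried that value, and without it the adjusted p was 0.49. Neither the Dut nor the Odc1 calls held without HRAS then MYC replicate 1 or without replicate 2 (0 genes passed).

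None of the synthesis genes passed when a Polycomb gene was added to MYC cells. In MYC+Ezh2 against MYC cells none of 32 passed limma's test (no other tool was run), where 0.130% of all genes rose and 0.115% fell. None of the 32 had an unadjusted p under 0.05 in limma's test, where 2149 of all 19938 genes did. In MYC+Bmi1 against MYC cells none of 32 passed, where 0.100% of all genes rose and 0.0502% fell. None had an unadjusted p under 0.05 there either, where 2315 of all 19938 genes did. The differences ran from -0.55 to 0.36 with Ezh2 and from -1.17 to 0.13 with Bmi1, the lowest being Aldh1l2 in both.

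With Bmi1 added to HRAS cells, Rrm2 and Nme1 rose and no gene fell, where 2.87% of all genes rose and 3.04% fell. Rrm2 measured 10.60 and 10.63 in HRAS+Bmi1 arrays, above the highest HRAS array at 10.15, a rise of 1.32 ± 0.33 (adjusted p 0.014). Nme1 measured 10.62 and 10.41 in HRAS+Bmi1 arrays, against 8.43 to 9.99 in HRAS arrays, and rose by 1.19 ± 0.33 (adjusted p 0.027). The deoxynucleotide genes had a median difference of 0.81, against -0.16 in the serine and one-carbon genes. Medians in the same comparison were 0.57 for replication genes, 0.59 for ribosome biogenesis genes and -0.006 for all genes. Neither call held without HRAS+Bmi1 replicate 1 or without replicate 2 (0 genes passed), 1 gene passed without HRAS replicate 4 and 1 without replicate 5, and 4 passed without HRAS replicate 2 and 4 without replicate 3. Tested as an interaction, the effect of Bmi1 in MYC cells minus that in HRAS cells passed for none of the 32 genes, where 2.43% of all genes passed, and 7 of the 32 had an unadjusted p under 0.05, where 16.6% of all genes did.

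Genes of salvage and turnover around these branches moved in both directions. Of 12 measured genes of pyrimidine salvage and turnover, 3 rose and 4 fell in HRAS against MYC cells, and 3 rose and 3 fell in HRAS+MYC against MYC cells. Beside these and the following lists stand the shares over all genes, 15.4% higher and 18.0% lower in HRAS against MYC, 15.8% and 18.4% in HRAS+MYC against MYC, and 11.7% and 13.0% in HRAS+MYC against HRAS cells. Upp1, which breaks uridine down to uracil, measured 9.0 to 10.37 (median 9.91) in HRAS+MYC arrays, 10.34, 9.82, 9.55, 9.81 and 10.04 in HRAS arrays, and 4.77 to 6.36 (median 5.72) in MYC arrays. All HRAS+MYC and HRAS arrays were above all MYC arrays, by 4.01 ± 0.21 and 4.24 ± 0.23, but the HRAS then MYC arrays read 6.24 and 6.27. Cda, cytidine deaminase, rose by 2.73 ± 0.37 in HRAS against MYC cells, while Dctd and Dctpp1, a deaminase and a pyrophosphatase of deoxycytidine nucleotides, fell by 1.47 ± 0.26 and 1.43 ± 0.18. In HRAS+MYC over HRAS cells Ctps2, a second CTP synthase, fell by 1.33 ± 0.22 where Ctps rose.

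Of 13 purine salvage and turnover genes, 4 rose and 3 fell in HRAS against MYC cells, and 5 rose and 1 fell in HRAS+MYC against HRAS cells. Xdh, which makes uric acid, rose by 1.89 ± 0.23 in HRAS against MYC cells and fell by 1.58 ± 0.23 in HRAS+MYC against HRAS cells. Adk and Guk1, kinases of adenosine and GMP, fell by 1.03 ± 0.19 and 1.03 ± 0.13 in HRAS against MYC cells. Pnp, purine nucleoside phosphorylase, rose by 1.42 ± 0.23 in HRAS+MYC against MYC cells. Among 6 genes of deoxynucleotide control, Dnph1 rose by 1.09 ± 0.24 in HRAS+MYC over HRAS cells and Nme4 fell by 0.95 ± 0.18 in HRAS+MYC against MYC cells.

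Folate supply genes diverged from each other. Slc19a1, the reduced folate carrier, measured 9.47 to 10.12 (median 9.73) in HRAS+MYC arrays, 8.31, 8.73, 7.96, 6.81 and 7.87 in HRAS arrays and 9.57 to 10.20 (median 9.86) in MYC arrays. The HRAS arrays were below both groups, with a rise of 1.81 ± 0.20 in HRAS+MYC over HRAS cells and a fall of 1.91 ± 0.21 in HRAS against MYC cells. Ggh, which trims the glutamate tail that retains folate, measured 4.37 to 6.86 (median 6.42) in HRAS+MYC arrays, 9.56, 8.94, 8.68, 9.05 and 9.83 in HRAS arrays and 7.17 to 8.01 (median 7.82) in MYC arrays. Its order was the reverse for HRAS cells, and it fell by 3.16 ± 0.32 in HRAS+MYC against HRAS cells. Fpgs, which adds that tail, rose by 1.10 ± 0.19, and Aldh1l1, a cytosolic formyl-folate dehydrogenase, fell by 1.99 ± 0.22 in the same comparison. Of the 9 folate genes measured, 4 rose and 2 fell there.

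In glycine cleavage and the methionine cycle, 1 of 10 genes rose and 3 fell in HRAS against MYC cells, where 15.4% of all genes rose and 18.0% fell. Gldc, the decarboxylase of glycine cleavage, measured 5.83 to 6.93 (median 6.41) in HRAS+MYC arrays, 5.14, 5.41, 9.76, 5.41 and 6.43 in HRAS arrays and 7.22 to 9.78 (median 9.45) in MYC arrays. HRAS replicate 3, at 9.76, lay among the MYC arrays, and Gldc fell by 2.43 ± 0.59 in HRAS against MYC cells. Cbs and Cth, the enzymes that turn homocysteine into cysteine, differed from each other. Cbs fell by 2.30 ± 0.32 in HRAS and by 2.11 ± 0.29 in HRAS+MYC cells against MYC cells, while Cth rose by 1.51 ± 0.48 in HRAS+MYC over MYC cells and by 1.78 ± 0.50 over HRAS cells.

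**Figure D5:**
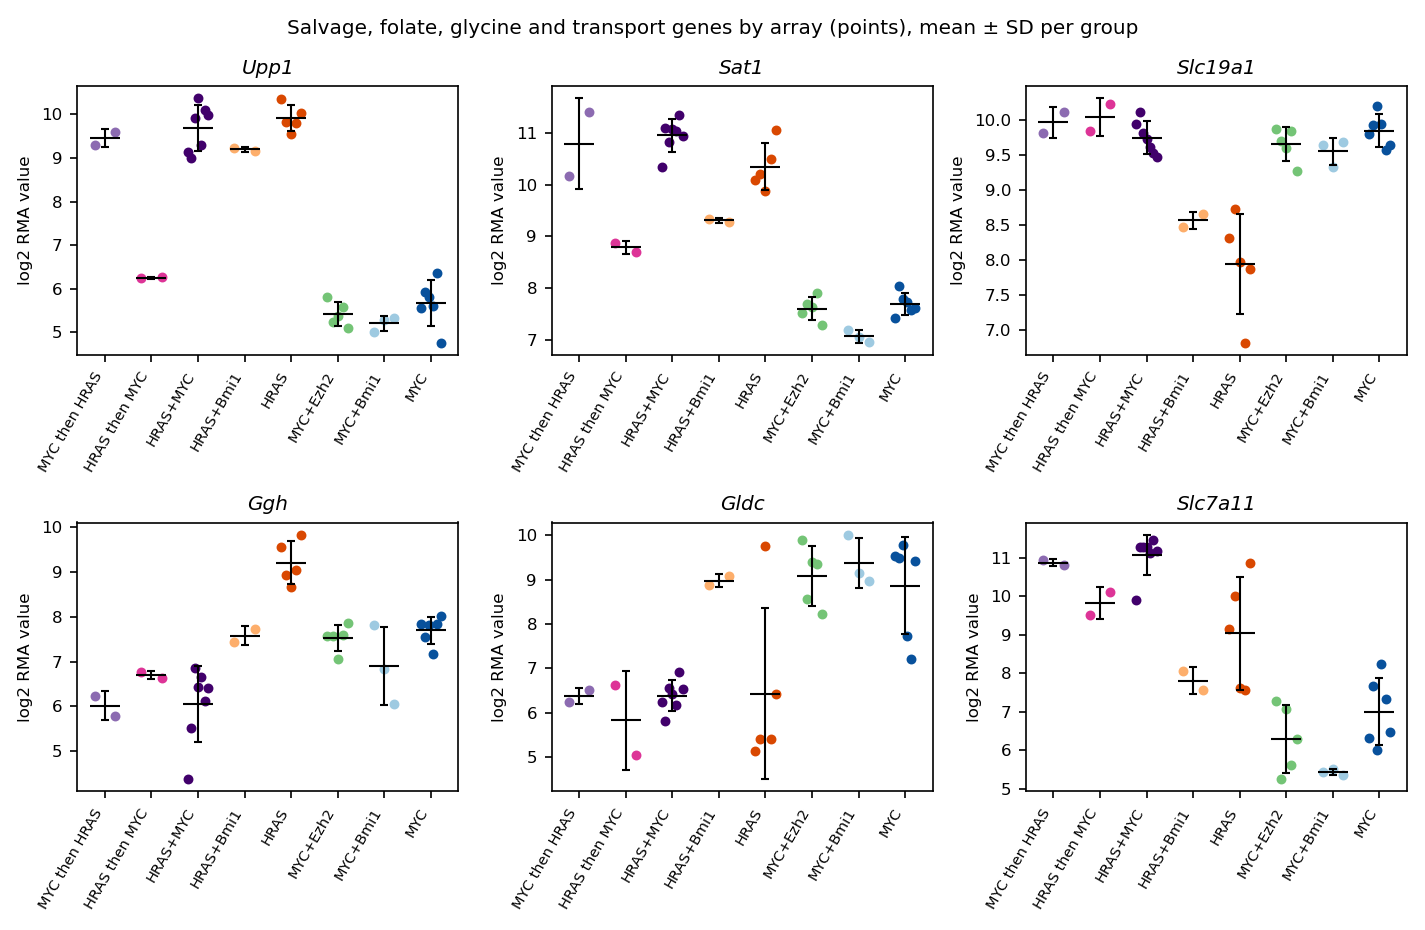
Log2 values of Upp1, Sat1, Slc19a1, Ggh, Gldc and Slc7a11 in each array (points) with mean and SD per group (bars). Upp1 and Sat1 are low in the 3 MYC tumour groups and intermediate or low in HRAS then MYC arrays, and Slc19a1 is lowest in HRAS arrays; axes differ between panels and do not start at 0.

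Among genes of polyamine breakdown and control, Sat1 encodes the acetyltransferase that starts the return from spermidine and spermine. Its RNA was measured here, not breakdown itself. Sat1 measured 10.34 to 11.36 (median 11.04) in HRAS+MYC arrays, 10.10, 10.21, 9.88, 10.50 and 11.06 in HRAS arrays, and 7.42 to 8.04 (median 7.67) in MYC arrays. No HRAS+MYC or HRAS array overlapped the MYC arrays, and the HRAS then MYC arrays, at 8.88 and 8.70, lay between. The rises over MYC cells were 3.26 ± 0.18 in HRAS+MYC and 2.66 ± 0.20 in HRAS cells. Azin1 and Azin2, which free ornithine decarboxylase from its antizyme, rose by 1.28 ± 0.14 and 2.13 ± 0.21 in HRAS against MYC cells and fell by 0.83 ± 0.14 and 2.35 ± 0.20 in HRAS+MYC against HRAS cells. Of 13 polyamine control genes measured, 5 rose and 1 fell in HRAS against MYC cells.

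Among 15 genes of amino acid uptake and the ATF4 response, 5 rose and none fell both in HRAS+MYC over HRAS and in HRAS+MYC over MYC cells. Slc7a11, the cystine carrier, measured 9.91 to 11.47 (median 11.27) in HRAS+MYC arrays, 9.16, 10.02, 7.61, 7.55 and 10.86 in HRAS arrays and 6.01 to 8.24 (median 6.91) in MYC arrays. It was higher in every HRAS+MYC than in any MYC array, by 4.07 ± 0.45, and its HRAS arrays spread over both ranges. Slc1a5, a glutamine carrier, rose by 1.99 ± 0.28 in HRAS+MYC over HRAS cells and fell by 1.53 ± 0.29 in HRAS against MYC cells. Trib3 and Cebpb, targets and partners of the stress factor ATF4, rose by 2.08 ± 0.40 and 1.5 ± 0.17 in HRAS+MYC over MYC cells.

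Growth genes outside metabolism were counted beside them. Of 17 ribosome biogenesis genes, 17 rose in HRAS+MYC over HRAS cells with a median of 0.83, 16 fell in HRAS against MYC cells with a median of -0.85, and none passed in HRAS+MYC against MYC cells. Rrp9 rose by 1.21 ± 0.20 in HRAS+MYC over HRAS cells and Fbl, the rRNA methylase fibrillarin, fell by 1.19 ± 0.14 in HRAS against MYC cells. Of 17 replication genes measured, 7 rose in HRAS+MYC over HRAS cells with a median of 0.57, and 11 fell in HRAS against MYC cells with a median of -0.78. Ccne1, cyclin E1, rose by 1.39 ± 0.24 and Cdc6, which loads the replicative helicase, by 1.18 ± 0.25 in HRAS+MYC over HRAS cells. Mki67 differed by 0.27 ± 0.25 in that comparison (adjusted p 0.48) and fell by 1.08 ± 0.26 in HRAS against MYC cells (adjusted p 0.0014). In the MYC network of 10 genes, mouse Myc rose by 4.35 ± 0.34 in HRAS against MYC cells and fell by 3.70 ± 0.33 in HRAS+MYC against HRAS cells, and Mycl fell by 1.35 and 0.95 in HRAS and HRAS+MYC cells against MYC cells.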

How the data were processed

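RNA of 32 cultures was measured on Affymetrix Gene 1.0 ST arrays. The deposited values are log2 expression values made by the authors; the submitters' processing notes name RMA and Affymetrix Expression Console 1.0, and that scale fits their range of 1.44 to 14.5. RMA equalises the arrays, so a shift in total RNA per cell cannot be seen, and the number of arrays limits the precision. The genome build is not given in the sources used here.

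Of 35557 probe sets, 21789 carried 1 gene symbol, 1621 several, and 12147 were not listed in the platform annotation. The 19938 genes with a single-symbol probe set were analysed, each through the probe set with the highest mean. Of the synthesis genes, Tk1 and Odc1 had 2 such probe sets. With their second probe sets, tried after seeing the data, the number of synthesis genes that passed was unchanged in each comparison. One linear model with 8 group means was fitted to all arrays with limma 3.58.1 in R 4.3.3, with empirical Bayes moderation. P-values were adjusted by Benjamini-Hochberg over all genes, and a gene passed at an adjusted p under 0.05. The code was tested on simulated data. Differences of 3 gene pairs within arrays were compared by 2-sided exact permutation tests (scipy 1.17.1), 9 in all; the pair Impdh1 and Impdh2 was not run because Impdh2 is not analysed here. Samples were grouped by title.

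The genes and lists were chosen with earlier results of these data known. Array values are given for up to 4 genes per branch with the largest difference among those that passed without overlap of HRAS with HRAS+MYC or MYC arrays. From each neighbouring list, up to 3 genes per direction with the largest differences are named. The array values of Ppat, Paics, Dck, Nme1, Odc1 and of the neighbouring genes were added after their values were seen. Same-numbered replicates did not deviate together in any comparison with 3 or more pairs by the criterion of every correlation over 0.1, so no pairing was used. Alternatives were the probe set rule, a filter on dim genes, scaling, centring, the arrays in the fit, moderation, array weights, the replicate block and leaving out arrays.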

Additional observations from a re-analysis of the deposited data

Results flagged for a closer look

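Dixon's test, applied to the highest and lowest array of each gene in the 4 groups of 4 to 10 arrays, picked out 8 of 128 cases, where chance gives about 1 in 20. In MYC replicate 6 the value of Atic was 11.075, with the other MYC arrays from 11.66 to 11.88. Prps1 there was 10.755, with the others from 11.69 to 11.86. Rrm1 there was 10.44, with the others from 11.53 to 11.85. In HRAS replicate 4 Impdh1 was 6.3527, with the other HRAS arrays from 7.22 to 7.50. In HRAS replicate 5 Mthfd2 was 10.406, with the others from 9.37 to 9.58. In HRAS+MYC replicate 1 Tk1 was 9.7207, with the other HRAS+MYC arrays from 8.97 to 9.28. Phgdh was 10.55 in that array, with the others from 10.84 to 11.03. Aldh1l2 was 7.9831 in it, with the others from 9.54 to 10.60.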

How the results depend on the processing

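No difference of a gene that passed changed direction under any alternative run. The count of 23 genes in HRAS against MYC cells stayed between 21 and 24 and that of 23 in HRAS+MYC against HRAS cells between 19 and 26. Of these, 21 and 19 genes passed in every alternative. In HRAS against MYC cells 1 gene, Odc1, passed as higher when MYC replicate 5 was left out, alone or together with replicate 4. The F test gave 27 to 30 genes, and MYC+Ezh2 against MYC, MYC+Bmi1 against MYC and MYC then HRAS against HRAS+MYC cells gave 0 in all alternatives run. With only the 2 groups compared in the fit, the counts were 6 for HRAS then MYC against HRAS, 6 for HRAS then MYC against HRAS+MYC, 0 for HRAS+Bmi1 against HRAS, 0 for MYC then HRAS against HRAS then MYC and 3 for MYC then HRAS against MYC cells, in place of 19, 2, 2, 1 and 6. With array weights, 5 passed in HRAS then MYC against HRAS+MYC and 5 in HRAS+Bmi1 against HRAS cells. With the replicate number as a block 1 and 1 passed in these comparisons, and the same-numbered samples share only a number. With MYC replicate 6 and HRAS replicate 4 left out together, a choice made after seeing the data, 11 passed in HRAS+MYC against MYC cells in place of 6. Leaving out 1 array gave 6 to 19 for HRAS then MYC against HRAS, 0 to 2 for HRAS then MYC against HRAS+MYC, 0 to 4 for HRAS+Bmi1 against HRAS, 5 to 10 for HRAS+MYC against MYC, 0 to 1 for MYC then HRAS against HRAS then MYC, 1 to 8 for MYC then HRAS against MYC and 3 to 6 for the 9 tests of gene pairs (6 passed with all arrays). Apart from the fits with fewer arrays, the cause of these shifts was not tested. Groups of 2 arrays limit the consecutive and HRAS+Bmi1 comparisons.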
